A study of Caenorhabditis elegans with 7 samples.

Results

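Epithelial junctions join the cells of the hypodermis, the epidermal layer of Caenorhabditis elegans, and those of its gut, pharynx and other epithelia. The 10 genes described here are ajm-1, dlg-1, hmr-1, hmp-1, hmp-2, let-413, jac-1, vab-9, crb-1 and sax-7, chosen by name as apical junction genes out of 27909 genes with a deposited 3′ UTR entry. Deposited 3′ UTR entries were joined to genes by transcript name in the WBcel235 annotation, or by sequence name where that failed. All 10 genes had at least 1 entry. Whole L4 larvae were profiled by SLAM-ITseq, a method for RNA of a chosen tissue. Cells that have the enzyme uracil phosphoribosyltransferase take up 4-thiouracil into the RNA they make, and in sequencing a thiouracil site appears as a T-to-C mismatch, written T>C. Reads deposited as carrying T>C are called labelled here, whatever their source, and the number of mismatches they needed is not stated. Libraries of the control strain had such reads as well. Strain BN1158 without FLP recombinase was the control (4 libraries), and strain BN1190 carried FLP under the dpy-7 promoter (dpy-7p::FLP), which is active in the hypodermis (3 libraries). Larvae of both strains grew at 20 °C for 28 h on 3 plates of about 350 animals each and then received 4-thiouracil for a total of 17 h. The labels give no further genotype for either strain.

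Cell adhesion at the worm's apical junction rests on a pair of neighbouring protein complexes. In the cadherin-catenin complex, the cadherin HMR-1 spans the membrane, the beta-catenin HMP-2 binds its tail, the alpha-catenin HMP-1 links it to actin, and the p120-catenin JAC-1 binds the tail as well. Just basal to it lies the complex of AJM-1, a coiled-coil protein, and DLG-1, the relative of Discs large, which LET-413, the relative of Scribble, helps to position. CRB-1 is a Crumbs protein of the apical side, VAB-9 is a membrane protein related to claudins, and SAX-7 is an adhesion molecule of the L1CAM family that is also known for its part in neurons. Several of these proteins act in all epithelia of the animal, so the reads of a whole larva do not come from the hypodermis alone.

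The libraries differed in depth and in header. Gene reads per library ranged from 5041278 in control replicate 2 to 61942117 in hypodermal replicate 1, and the 10 junction genes together held between 1041 and 32671 of them. The headers of control replicate 1 and hypodermal replicate 1 name no flow cell and those of the other 5 libraries do, so that replicate 1 of each strain stands in a header class of its own, and these are the 2 most deeply sequenced libraries. Labelled reads made up between 2.63% and 4.58% of gene reads in the controls and between 3.35% and 3.76% in the hypodermal libraries, with control replicate 2, the shallowest, at the top. Of 14 hypodermal marker genes, such as the collagens sqt-3 and sqt-1, all had reads, and their summed labelled share was 2.32% ± 0.746 (SD, n = 4) in controls and 2.14% ± 0.206 (SD, n = 3) in hypodermal libraries. The controls ran from 1.65% to 3.37%, and the sum weighs genes by their reads. Gene by gene, 9 of the 14 had a fitted log2 odds ratio of labelling above 0, with a median of 0.37. Over all genes tested 69.96% were above 0 and the median was 0.54. For 10 intestinal markers the shares were 4.15% ± 1.46 and 4.98% ± 0.524. Markers of pharynx had 4.26% ± 0.984 and 5.33% ± 0.228, and those of body wall muscle 5.43% ± 0.339 and 6.13% ± 0.375. Neurons, at 4.42% ± 2.65 and 4.26% ± 0.845, were the only other marker list with a lower mean in hypodermal libraries. The labels do not say whether replicates came from separate cultures, so the spread behind each p-value may be technical. Intervals for single libraries are 95% Wilson intervals and, like the limits given for a count of 0 (3 reads of the total), cover counting error only.

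Levels were compared first, as CPM, reads scaled to a common library total after TMM scaling, which allows for libraries of different make-up. The order of mean levels over the 7 libraries was sax-7 (120.9 ± 19.9, SD), ajm-1 (106.5 ± 37.3), hmp-1 (67.8 ± 18.7), hmr-1 (27.1 ± 11.6), dlg-1 (19.2 ± 22.7), jac-1 (16.9 ± 7.13), vab-9 (14.8 ± 8.11), let-413 (13.95 ± 4.89), crb-1 (10.02 ± 3.78) and hmp-2 (2.91 ± 2.39). Of the neighbours in that order, hmp-1 lay above hmr-1 and crb-1 above hmp-2 in all 7 libraries. Each other pair of neighbours changed places in at least 1 library, and dlg-1 lay above jac-1 in only 2. Per kilobase of counted UTR the order was led by hmp-1 (111.2 CPM per kb), sax-7 (91.3) and jac-1 (62.4), and let-413 (13.3) came last. A 3′ mRNA kit reads the end of a transcript whatever its length, so the order per kilobase depends on how much UTR the annotation lists.

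**Figure D1:**
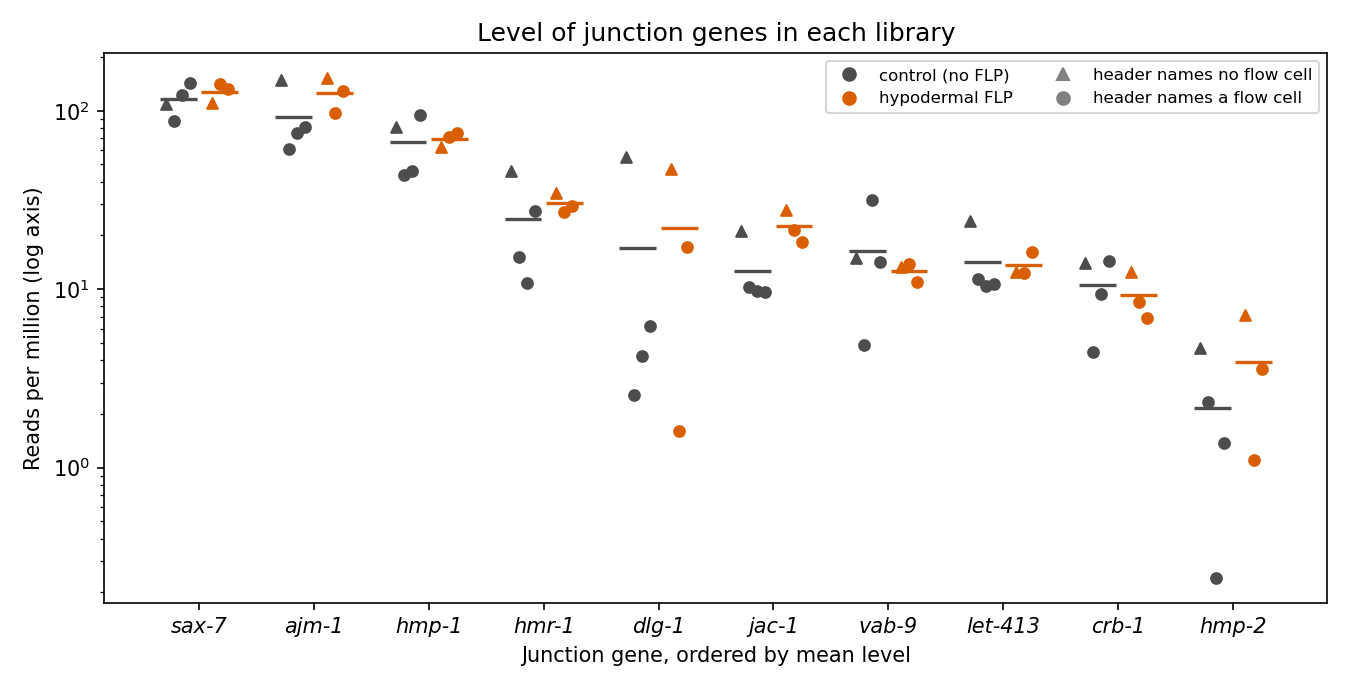
CPM (log axis) of the 10 junction genes in 4 control and 3 hypodermal FLP libraries; each point is a library, horizontal lines are group means, and triangles are the replicates 1, whose headers name no flow cell. For dlg-1 the triangles, 55.4 and 47.3, stand above all circles, of which the highest is 17.2.

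The cadherin-catenin complex was read at unequal levels. The alpha-catenin gene hmp-1 (WBGene00001978; counted 3′ UTRs V:11849540-11849754 and V:11851771-11852165, plus strand) had, in replicate order, 81.6, 43.4, 45.8 and 94.8 CPM in the controls and 62.7, 71.4 and 75.1 CPM in the hypodermal libraries. The hypodermal values lay inside the control range. The cadherin gene hmr-1 (WBGene00001980; 3′ UTR I:11075758-11076371, minus strand) had 45.7, 15.2, 10.9 and 27.3 CPM in controls and 34.4, 27.2 and 29.3 in hypodermal libraries, again overlapping. The p120-catenin gene jac-1 (WBGene00002175; 3′ UTR IV:15997858-15998128, minus strand) had 21.2, 10.3, 9.81 and 9.61 against 27.7, 21.4 and 18.4. Here 3 of 4 controls lay below every hypodermal library and control replicate 1 lay among them. The beta-catenin gene hmp-2 (WBGene00001979; 3′ UTR I:14742523-14742657, plus strand) was the least read, with 4.65, 2.33, 0.242 and 1.37 against 7.13, 1.11 and 3.56 CPM. Its value in control replicate 3 rests on 2 reads.

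The AJM-1 and DLG-1 pair was read unevenly across libraries of the same strain. For ajm-1 (WBGene00000100, chromosome X), the controls had 149.5, 60.9, 75.4 and 80.7 CPM and the hypodermal libraries 153, 96.7 and 129.8. Control replicate 1 and hypodermal replicate 1 were the highest of their strains. For dlg-1 (WBGene00001006; 3′ UTR X:5484127-5484941, plus strand), the controls had 55.4, 2.56, 4.24 and 6.195 CPM and the hypodermal libraries 47.3, 1.61 and 17.2. The same 2 libraries stood apart again, with 3178 and 3213 reads against 11 to 328 in the other 5. The Scribble relative let-413 (WBGene00002632; 3′ UTR V:7972924-7973976, minus strand) had 24.2, 11.4, 10.4 and 10.7 against 12.4, 12.4 and 16.1 CPM. Control replicate 1 lay above all hypodermal libraries, and the remaining controls lay below each of them.

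The 3 membrane proteins outside these complexes had hypodermal values that overlapped the control range. The L1CAM gene sax-7 (WBGene00004732; 3′ UTR IV:8082764-8084087, plus strand) had 109, 87.4, 123 and 143 CPM in controls and 111, 141 and 132 in hypodermal libraries. The claudin-like gene vab-9 (WBGene00006875; 3′ UTR II:8636233-8636487, minus strand) had 15.0, 4.90, 31.5 and 14.2 against 13.2, 13.8 and 10.9. The Crumbs gene crb-1 (WBGene00000792; 3′ UTR X:17402540-17402803, minus strand) had 14.03, 4.43, 9.44 and 14.4 against 12.5, 8.47 and 6.86. The counted UTRs of sax-7 and crb-1 overlap a gene on the other strand, nsy-7 over 97 bases and F11C7.6 over 42 bases, and the sources used here do not say whether the counting used strand. Neighbour counts were 15 to 407 reads per library for nsy-7 and 0 to 47 for F11C7.6.

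Between the strains, none of the 10 junction genes passed the test of total reads. In edgeR's quasi-likelihood test with Benjamini-Hochberg adjustment over 12465 genes, 2 genes passed at 0.05 (0.016%), nlp-27 and pgp-6, both lower in the hypodermal strain and both outside this group, and the unadjusted p was under 0.05 for 91 higher and 193 lower genes. The largest log2 fold changes of junction genes were 0.86 ± 0.97 (SE) for hmp-2 and 0.81 ± 0.40 for jac-1 (unadjusted p = 0.0666, adjusted p = 1.00), and ajm-1 had 0.46 ± 0.35. The value of hmp-2 ran from 0.10 without hypodermal replicate 1 to 1.58 without control replicate 1. The others lay between -0.38 ± 0.53 for vab-9 and 0.34 ± 1.07 for dlg-1. In all, 7 of the 10 were above 0 and 3 below, with a median of 0.21, where 49.3% of all genes tested were above 0 and their median was -0.01. In 2.62% of genes tested every hypodermal library lay above every control, and this held for 0 of the 10. Among the 5 libraries with a named flow cell alone, jac-1 had a log2 fold change of 0.99 (unadjusted p = 0.0404, adjusted p = 1.00 in edgeR), and between the replicates 1 of both strains its log2 ratio was 0.39, with no replicate on either side. For ajm-1 the corresponding values were 0.64 and 0.03. Fewer cells of a type and less RNA per cell cannot be told apart in whole larvae.

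Total reads of the junction genes were also compared between the header classes, a contrast computed after the data were seen. Both libraries without a named flow cell lay above all 5 others for 4 of the 10 junction genes, ajm-1, dlg-1, hmr-1 and hmp-2, against 13.8% of all genes tested. With strain in the same edgeR fit, dlg-1 was 3.07 ± 0.68 (SE) higher on the log2 scale in these 2 libraries (unadjusted p = 0.00112, adjusted p = 0.132), the largest difference of the 10. The differences were 0.77 ± 0.29 for ajm-1 (adjusted p = 0.381), 0.82 ± 0.33 for jac-1 (adjusted p = 0.443), 0.89 ± 0.41 for hmr-1 (adjusted p = 0.506) and 1.74 ± 0.90 for hmp-2 (adjusted p = 0.563). For sax-7, vab-9 and hmp-1 they were -0.20 ± 0.29, -0.05 ± 0.58 and 0.12 ± 0.37. No gene of 12465 passed the adjusted threshold in this contrast (0.0%), although 856 were higher and 404 lower at an unadjusted p under 0.05, among them 3 of the 10 junction genes, all higher. With no filter on low counts dlg-1 had an adjusted p of 0.0153 and 96 genes passed, and without control replicate 3 a total of 184 genes passed, none of them a junction gene. The headers do not say what else differed between the classes, and depth, header class and replicate number 1 cannot be told apart.

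**Figure D2:**
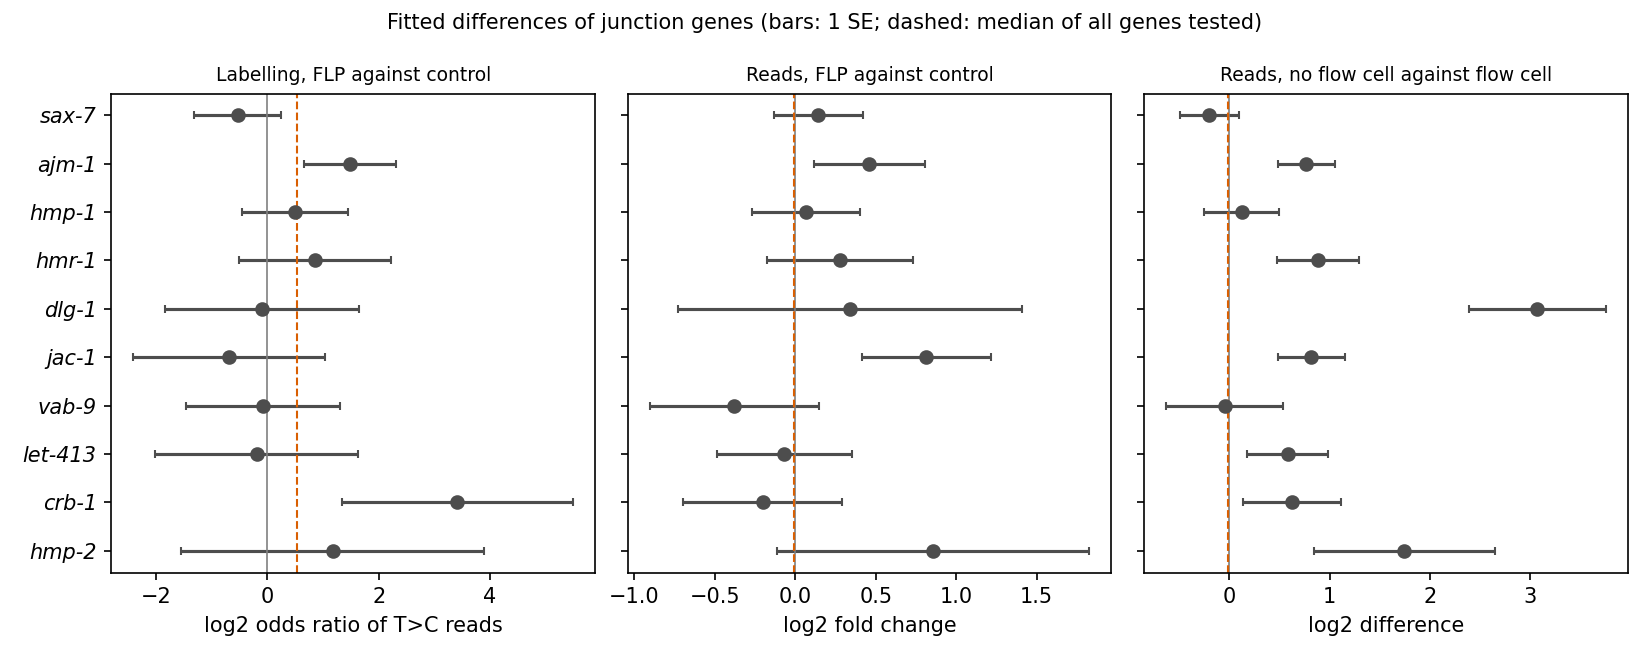
Fitted log2 differences (points) with 1 SE (bars) for the 10 junction genes in labelling, in total reads between strains and in total reads between header classes; the dashed line is the median of all genes tested. In the panel of header classes dlg-1 stands at 3.07, and in the labelling panel crb-1 has the highest estimate, 3.41, with an SE of 2.07.

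The labelled share was the measurement that the design was built for, since FLP in the hypodermis is meant to add label to RNA made there. No junction gene passed the test of labelling, and neither did any other gene. In edgeR's quasi-likelihood test on labelled and other reads, 0 of 9822 genes passed after Benjamini-Hochberg adjustment (0.0%), with 281 higher and 40 lower at an unadjusted p under 0.05, and 0 genes passed with limma on log2 odds. Of the 10 junction genes, 5 had log2 odds ratios above 0 and 5 below, with a median of 0.21, where the median of all genes tested was 0.54 and 69.96% were above 0. In 5.8% of genes tested every hypodermal library had a higher labelled share than every control, and this held for 0 of the 10. Summed over the 10 genes, labelled reads made up 2.11%, 4.42%, 0.869% and 1.78% of reads in the controls, in replicate order, and 3.00%, 2.49% and 2.88% in the hypodermal libraries. Control replicate 2, with 46 labelled reads of 1041 (interval 3.33 to 5.84), lay above every hypodermal library and the other 3 controls lay below each of them.

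**Figure D3:**
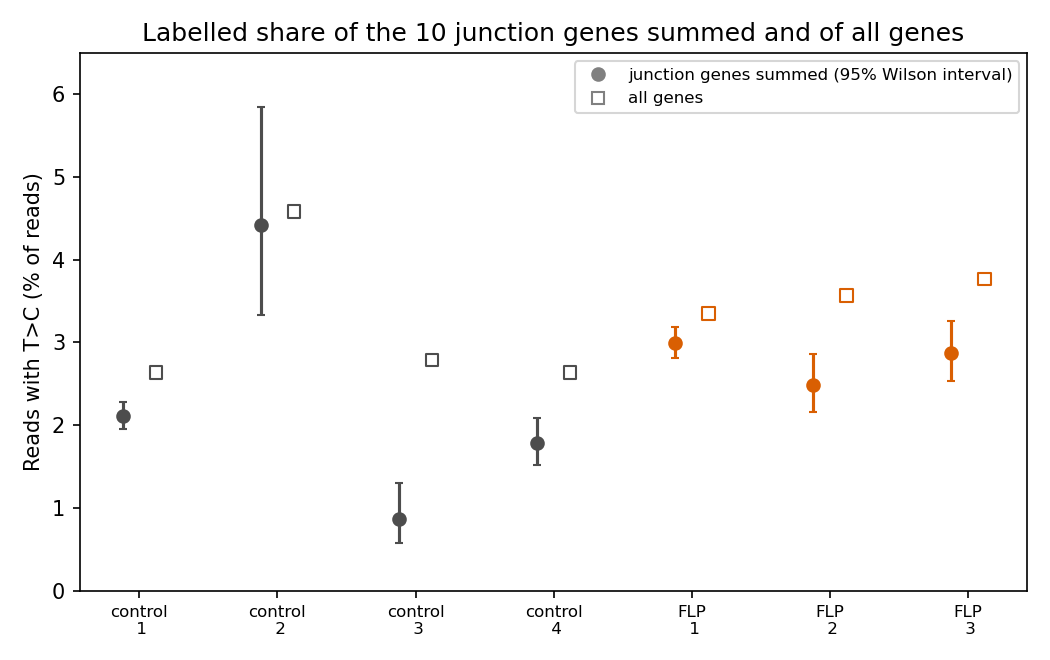
Labelled reads as a percent of reads in each library, for the 10 junction genes summed (circles, with 95% Wilson intervals) and for all genes (open squares); grey is control and orange hypodermal FLP. The circles lie below the squares in each of the 7 libraries, within the interval in control replicate 2, from 0.869% in control replicate 3 to 4.42% in control replicate 2.

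The smallest unadjusted p of the 10 belonged to ajm-1. Labelled reads numbered 185 of 8581, 2 of 261, 1 of 623 and 22 of 1654 in the controls, or 2.16%, 0.766%, 0.161% and 1.33%. In the hypodermal libraries they numbered 320 of 10362, 67 of 1919 and 52 of 2479, or 3.09%, 3.49% and 2.10%. The groups overlapped only through control replicate 1 (interval 1.87 to 2.49), which lay just above hypodermal replicate 3 (1.603 to 2.74). The mean share was 1.10% ± 0.849 (SD, n = 4) in controls and 2.89% ± 0.717 (SD, n = 3) in hypodermal libraries, a log2 odds ratio of 1.48 ± 0.82 (SE; edgeR, unadjusted p = 0.0720, adjusted p = 1.00). With only the most-read of its 3′ ends, the last, it was 0.61, and with 1 library left out it ran from 0.96 without control replicate 3 (unadjusted p = 0.148) to 2.01 without control replicate 1 (unadjusted p = 0.0267), with an adjusted p of 0.723 or more throughout. Within the libraries with a named flow cell it was 1.98 (unadjusted p = 0.0894), and replicate 1 of the hypodermal strain lay 0.932 percentage points above control replicate 1. With libraries centred on all gene reads the log2 odds ratio was 1.20 (edgeR, unadjusted p = 0.124). In the main analysis 75.6% of genes tested for labelling had a lower log2 odds ratio than ajm-1. The share of all genes whose groups overlap through a single library was not computed.

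The gene ajm-1 has 15 annotated 3′ UTR entries, of which 3 that do not overlap were counted, so its reads could be split by region. Entries that overlap these were left out, so each region can hold reads of more than 1 isoform. The 3 counted ends are those of transcript C25A11.4b (X:9107386-9108542), of C25A11.4c (X:9110698-9111079) and of C25A11.4a (X:9113325-9113613), in that order along the gene on the plus strand. At the first end the labelled share was 3.04%, 0.709%, 0% and 2.27% in controls and 3.66%, 3.85% and 4.14% in hypodermal libraries, so that every hypodermal library lay above every control. The difference of 2.38 points had a two-sided exact permutation p of 0.0571, the smallest that 35 splits allow, and 0.171 after Benjamini-Hochberg adjustment over the 3 ends. This end was singled out after its values were seen, and 5.71% of the 10113 ends with enough reads were separated in the same way. Full separation of the groups fixes the permutation p at its smallest value, so it only restates the separation. The adjustment does not cover the choice of ajm-1 among the junction genes. The middle end had 2.50%, 0%, 0% and 0.917% against 3.84%, 3.82% and 1.06% (exact p = 0.114), and the last end 1.42%, 2.0%, 0.763% and 0.295% against 2.14%, 1.45% and 0.923% (exact p = 0.4). At the middle and the last end the groups overlapped.

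The last end held a larger share of ajm-1 reads in both replicates 1 than in the other 5 libraries. It took 47.5% of ajm-1 reads in control replicate 1 and 40.5% in hypodermal replicate 1. Elsewhere its share was 19.2%, 21.03% and 20.5% among the remaining controls and 14.3% and 30.6% in the remaining hypodermal libraries. Averaged by strain, the shares of the last end were 27.0% ± 13.7 (SD, n = 4) and 28.5% ± 13.2 (SD, n = 3), a difference smaller than the spread. The middle end ran the other way, with 21.5% and 24.2% in the replicates 1 and between 26.8% and 49.1% elsewhere. The first end took between 31.0% and 54.02% in all libraries.

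**Figure D4:**
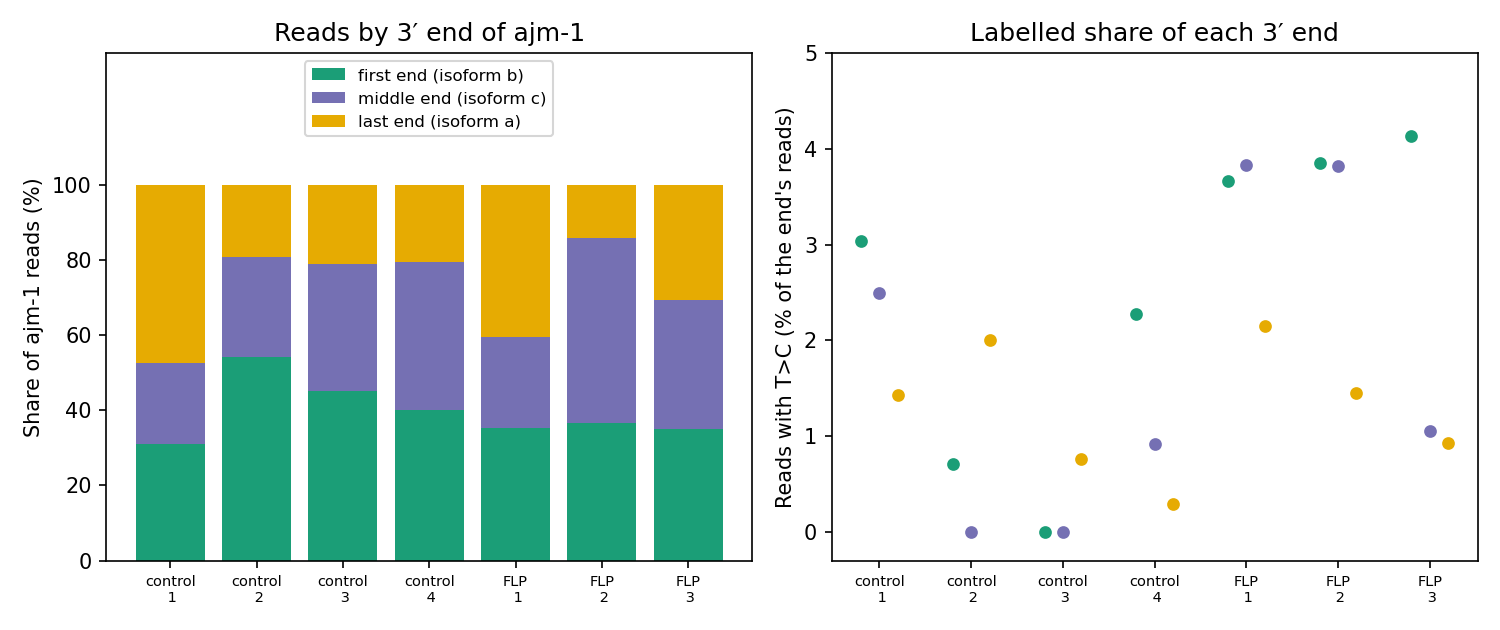
Left, the share of ajm-1 reads at each of its 3 counted 3′ ends in every library. Right, labelled reads as a percent of the reads at each end (control replicates 1 to 4, then hypodermal FLP replicates 1 to 3). Each end is named by the isoform of its counted entry. The last end holds 47.5% and 40.5% of reads in the replicates 1, and the first end is labelled at 3.66% to 4.14% in the hypodermal libraries.

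Labelling of hmr-1 and hmp-1 varied more within the controls than between strains. For hmr-1, labelled reads made up 2.71%, 18.5%, 0% and 5.89% of reads in controls and 5.73%, 9.44% and 8.04% in hypodermal libraries. The 18.5% of control replicate 2 rests on 12 labelled reads of 65 (interval 10.9 to 29.6), and the 0% of control replicate 3 on 0 of 90, which allows a share of up to 3.33%. The log2 odds ratio was 0.86 ± 1.36 (SE; edgeR, adjusted p = 1.00), and it ran from 0.23 without control replicate 3 to 1.64 without control replicate 2. The mean share of hmr-1 was 6.77% ± 8.16 (SD, n = 4) in controls, where its pooled reads gave 3.48%, and 7.74% ± 1.87 (SD, n = 3) in hypodermal libraries, where they gave 6.69%. For hmp-1 the shares were 2.31%, 9.14%, 1.85% and 1.29% against 3.99%, 4.02% and 3.07%. Control replicate 2, at 17 labelled reads of 186, was again the only control above the hypodermal libraries. The log2 odds ratio of hmp-1 was 0.50 ± 0.96 (adjusted p = 1.00). Its short upstream end (transcript R13H4.4f), which took 1.08% to 4.50% of the gene's reads, had 0 labelled reads in each of the 7 libraries. These zeros rest on 2 to 159 reads per library, so the shares that single libraries allow are mostly wide. Pooled, they were 0 of 208 reads in controls and 0 of 117 in hypodermal libraries.

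The other catenin genes had few labelled reads. For jac-1 there were 23 of 1214, 2 of 44, 0 of 81 and 4 of 197 in controls and 48 of 1883, 0 of 424 and 7 of 351 in hypodermal libraries, the 0 of 424 allowing a share of up to 0.708%. Its log2 odds ratio was -0.68 ± 1.72, the lowest of the 10. In control replicate 1 those 23 labelled reads of jac-1 carried 3 converted Ts inside the counted UTR, whereas the 48 of hypodermal replicate 1 carried 48. The 7 of hypodermal replicate 3 carried 2, the 2 of control replicate 2 carried 0 and the 4 of control replicate 4 carried 4, so the shortfall stood in both strains. On converted Ts the log2 odds ratio of jac-1 was 0.31. For hmp-2, 48 of its 52 labelled reads came from hypodermal replicate 1, where they were 48 of 484 (9.92%, interval 7.56 to 12.9), while hypodermal replicate 3 had 0 of 68. Control replicate 1, of the same header class, had 1 of 267 (0.375%, interval 0.0661 to 2.09).

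**Figure D5:**
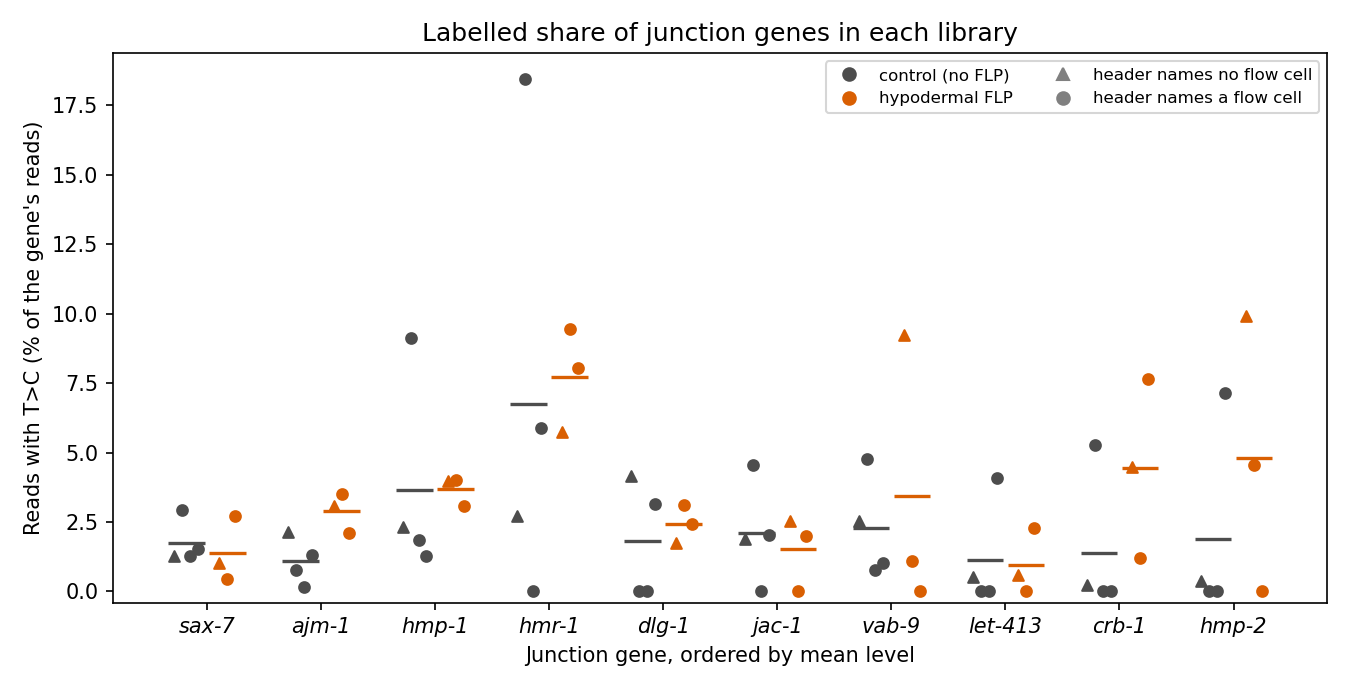
Labelled reads as a percent of each junction gene's reads; each point is a library, horizontal lines are group means, and triangles are the replicates 1, whose headers name no flow cell. The highest point is hmr-1 in control replicate 2, at 18.5% of 65 reads, and no gene has all hypodermal points above all control points.

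Among the remaining genes, crb-1 had the highest estimate and sax-7 the most reads. For crb-1, labelled reads numbered 2 of 805, 1 of 19, 0 of 78 and 0 of 296 in controls and 38 of 849, 2 of 168 and 10 of 131 in hypodermal libraries. As shares these were 0.248%, 5.26%, 0% and 0% against 4.48%, 1.19% and 7.63%, and only control replicate 2, with 1 labelled read, overlapped the hypodermal values. The log2 odds ratio was 3.41 ± 2.07 (SE; edgeR, unadjusted p = 0.0998, adjusted p = 1.00), 4.72 without control replicate 2 (adjusted p = 0.657) and 2.81 within the libraries with a named flow cell. Adjusted p-values over all alternatives ran from 0.657 upward. For sax-7 the shares were 1.26%, 2.93%, 1.28% and 1.53% against 1.02%, 0.464% and 2.71%, a log2 odds ratio of -0.53 ± 0.77. Its 3 hypodermal libraries did not stand together, with intervals of 0.272 to 0.793 in replicate 2 and 2.14 to 3.42 in replicate 3. Between 84.8% and 93.98% of sax-7 reads lay outside the shorter 3′ UTR entry of transcript C18F3.2b, in the part that only the longer entry holds.

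The claudin-like gene vab-9 and the polarity genes dlg-1 and let-413 had log2 odds ratios near 0, with wide errors. For vab-9, 83 of 899 reads (9.23%, interval 7.51 to 11.3) were labelled in hypodermal replicate 1, against 3 of 274 and 0 of 209 in the other hypodermal libraries and 22 of 862, 1 of 21, 2 of 260 and 3 of 292 in controls. The high share stood in 1 of 3 hypodermal libraries, and the log2 odds ratio was -0.07 ± 1.38. For dlg-1, 132 of 3178 reads (4.15%, interval 3.51 to 4.90) were labelled in control replicate 1 and 56 of 3213 (1.74%, interval 1.34 to 2.26) in hypodermal replicate 1. These are the libraries that held nearly all of its reads, and the control was the higher. The other 5 libraries had between 0 and 8 labelled dlg-1 reads, and the log2 odds ratio was -0.09 ± 1.74. For let-413, labelled reads numbered 7 of 1389, 0 of 49, 0 of 86 and 9 of 220 in controls and 5 of 844, 0 of 246 and 7 of 307 in hypodermal libraries, a log2 odds ratio of -0.19 ± 1.82. The SE of each of these 3 estimates was larger than the log2 odds ratio of the median gene, 0.54.

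Other genes of the junction and its underlying cortex were taken from 6 lists of 48 genes, of which 46 had an entry and 41 were tested for labelling. None passed in edgeR's test, 4 were higher and 0 lower at an unadjusted p under 0.05, and 27 of 41 were above 0, with a median log2 odds ratio of 0.39. Over all 9822 genes 281 were higher and 40 lower at that p, 69.96% were above 0 and the median was 0.54, so neither the share above 0 nor the median of these lists exceeded that of all genes. The share higher at that p, 4 of 41, was larger than 281 of 9822, and this difference was not tested. The 4, named after their values were seen, were the polarity gene par-3, the alpha-spectrin gene spc-1, the nonmuscle myosin light chain gene mlc-4 and the myosin phosphatase gene mel-11. For mlc-4 the labelled share was 0.177%, 0.664%, 0.126% and 1.22% in controls and 1.99%, 3.86% and 2.77% in hypodermal libraries, which did not overlap, as in 5.8% of all genes tested. Its log2 odds ratio of 2.83 ± 0.65 (SE) had an unadjusted p of 1.49e-05 and an adjusted p of 0.147, the smallest of all 9822 genes. Over 15 alternatives the adjusted p of mlc-4 ran from 0.00285, without control replicate 2, to 1.00, and it passed in 2 of them. For spc-1 the mean share was 0.686% ± 0.517 (SD, n = 4) in controls and 3.27% ± 1.30 (SD, n = 3) in hypodermal libraries, and for par-3 0.692% ± 0.577 and 2.13% ± 0.498 (adjusted p = 1.00 for both in edgeR). The authors' deposited table of 198 genes is named as cut at an FDR of 10% with a minimum T>C count, a looser threshold than 0.05. In it 0 of the 10 junction genes appear, while par-3 is listed with an authors' adjusted p of 0.0308 and spc-1 with 0.0701. The 198 genes are few beside the 9822 tested here, so an absence of 10 genes says little about them. Of the 48 genes of the 6 lists 2 appear, and this share was not tested. The authors' table comes from the same series, so its listings of par-3 and spc-1 are not independent of the values above. No other gene of the 6 lists appears there, mlc-4 and mel-11 included.

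By list, the counts are given to be read against the 69.96% of all genes above 0 and their median of 0.54, and nothing particular to a list was tested. Of 9 polarity genes 7 had log2 odds ratios above 0 and 1 reached an unadjusted p under 0.05, with a list median of 1.00, although the most-read members, cdc-42 and par-1, stood at -0.50 ± 0.58 and -0.34 ± 0.83. Of 11 genes of the cortical actomyosin and spectrin list 9 were above 0 and 3 reached that p, with a median of 0.50, and its most-read members rho-1 and nmy-1 stood at 0.34 ± 0.39 and -0.03 ± 0.43. Of 7 tested partners of the cadherin-catenin complex 4 were above 0, with afd-1, the afadin gene, at 0.26 ± 0.85 and srgp-1 at 0.66 ± 0.95. Of 5 tested claudin-like genes 3 were above 0, with clc-1 at 1.72 ± 1.18 and nsy-4 at -0.95 ± 1.85. Of 7 tested genes of other cadherins 2 were above 0, with casy-1 at 1.82 ± 0.97 and cdh-12 at -0.68 ± 1.63. Both tested partners of L1CAM were above 0, with the ankyrin gene unc-44 at 0.37 ± 0.56. In total reads 0 of 44 tested genes of these lists passed in either direction or reached an unadjusted p under 0.05, with a median log2 fold change of 0.09. Between header classes 1 of the 44, tes-1, named after its values were seen, reached an unadjusted p under 0.05, at 9.04 and 11.9 CPM in the replicates 1 and between 0 and 3.87 in the other 5 libraries.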

How the data were processed

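Per the file headers, the authors made 1 table per library with slamdunk 0.4.3 from 3′ UTR entries of WBcel235. These deposited counts give, per entry, reads, reads with T>C, covered Ts and converted Ts. Per the labels' protocols, RNA was alkylated and 3′ mRNA libraries were made with QuantSeq. The submitters' processing notes also list DESeq2 and ce10, with no role for either. The conversion threshold per read, masking of variants, strand and molecular identifiers are not stated in those sources. The authors' deposited table of 198 genes holds p-values and mean conversion rates as fractions, and 21 of its columns per library were not used.

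Of 47039 entries, 42202 were joined to genes by transcript name and 4816 by sequence name. The 21 others held 0.00444% of reads and were left out. Overlapping entries of a gene repeat each other's reads, so entries that do not overlap were kept, most-read first, and summed (33993 entries, 27909 genes). Where WBcel235 annotates a 3′ UTR (19463 entries), 93.2% began at the same stop codon to within 3 bases. No junction gene shares counted UTR on its own strand.

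Labelling was tested with edgeR 4.0.16 in R 4.3.3 (quasi-likelihood F-test, two-sided) on labelled and other reads, with a term per library, a labelled term and the tested labelled term of the hypodermal strain. Genes needed a mean of 20 reads per library and 10 labelled reads in all. Total reads were tested with TMM scaling and the same mean of 20 reads. Each SE was derived from the log2 estimate and the square root of its F value. P-values were adjusted by Benjamini-Hochberg over all genes tested, with a threshold of 0.05. Both fits were also run on simulated counts that held no effect of header class, and no result here rests on that run. Alternatives included limma 3.58.1 with 0.5 added to each count, DESeq2 1.42.0, a replicate block, a batch term and leaving out each library. Python 3.11.15, pandas 2.3.3, NumPy 2.4.6, SciPy 1.17.1 and matplotlib 3.10.9 were used for tables and figures.

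The rule for named genes was all 10 junction genes in every library, and at most the 2 most-read genes of each other list. Outside this rule, par-3, spc-1, mlc-4, mel-11 and tes-1 were named after their values were seen. The genes and lists were chosen with earlier results of these data known. Of the listed genes, zoo-1 and clc-4 were not analysed here. The contrast of header classes and the split of ajm-1 by 3′ end were added after the data were seen.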

Additional observations from a re-analysis of the deposited data

Results flagged for a closer look

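Among the 4 controls, 9 of 23 sets of values for junction genes had a library set far from the other 3, by the gap of the outermost library divided by the range (Dixon's test at 95%). For independent, normally distributed values the rule flags about 1 in 20. These sets share the same 4 libraries, and some rest on 1 or 2 labelled reads. The share flagged over all genes was not computed, so the count is not read as particular to junction genes. In CPM this was control replicate 1 for dlg-1 (55.4), let-413 (24.2) and jac-1 (21.2). Control replicate 1 was also apart in the share of ajm-1 reads at the end of transcript C25A11.4a, at 47.5%. In labelled shares it was control replicate 2, the shallowest library, for hmp-1 (9.14%), crb-1 (5.26%, 1 read) and sax-7 (2.93%), and control replicate 4 for hmp-2 (7.14%, 2 reads) and let-413 (4.09%, 9 reads). The 3 hypodermal libraries were too few for this rule.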

How the results depend on the processing

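Labelling gave 0 genes called in edgeR's main analysis and under all 8 alternatives that keep every library of the comparison or of 1 header class, and between 0 and 20 with 1 library left out, the 20 without control replicate 2 and 1 without control replicate 4. No junction gene was called in any of them. In total reads, 2 genes were called, 24 in DESeq2, 0 with library totals and no TMM, 0 with the replicate block, 0 within the libraries with a named flow cell, 0 with batch as a term, and between 0 and 1 with 1 library left out. No junction gene was among them. Between header classes 0 were called, 41 without TMM, 96 with no filter, and between 0 and 184 with 1 library left out, the 184 without control replicate 3. The log2 difference of dlg-1 between header classes was 3.07 and called with no filter.

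Some members changed direction while staying far from the threshold, and the cause was not tested. The log2 odds ratio of labelling turned for dlg-1 to 0.90 within the libraries with a named flow cell and to 0.27 with the replicate block, for let-413 to 1.43 with the replicate block, for hmp-2 to -0.30 in limma and for jac-1 to 0.31 on converted Ts. With 1 library left out it ran from -0.53 to 0.52 for dlg-1, -0.10 to 2.98 for hmp-2, -1.29 to 1.14 for let-413, -1.63 to 0.33 for jac-1, -1.77 to 1.11 for vab-9 and -1.21 to 0.043 for sax-7. The log2 fold change of reads turned for crb-1 to 0.076 with the replicate block and for let-413 to 0.38 within the libraries with a named flow cell and to 0.000485 with batch as a term. With 1 library left out it ran from -0.87 to 2.30 for dlg-1, -0.076 to 0.29 for hmp-1, -0.20 to 0.31 for let-413 and -0.65 to 0.13 for vab-9. The difference between header classes turned for vab-9 to 0.12 without TMM. With 1 library left out it ran from -0.24 to 0.38 for hmp-1, -0.21 to 1.12 for let-413 and -0.23 to 0.34 for vab-9. Labelling of hmp-2 and vab-9 could not be fitted within the libraries with a named flow cell, nor that of hmp-2 without hypodermal replicate 1, for lack of labelled reads.

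Deviations from the group means correlated at 0.512, 0.183 and -0.083 for the replicate numbers 1 to 3, so the numbers were not taken as pairs throughout, although both replicates 1, which share a header class, deviated together. The replicate block called 0 genes in labelling, as without it, and 0 in reads. Few reads lie behind many shares: hmp-2, dlg-1, crb-1, hmr-1, let-413 and jac-1 had under 100 reads in at least 2 libraries each.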
